A study of Mus musculus with 24 samples.

Results

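The Slc25 genes encode the mitochondrial carriers, and 41 of them were followed in mouse kidney across the active and inactive periods of the day in males and females. A gene was taken when its identifier maps to a symbol made of Slc25a and a number and its mean normalized count over the 24 libraries was at least 10. The deposited table holds 47 such symbols, of which the rule leaves out 1. Of the other 46, 41 passed the level filter. They stand among 17333 genes that passed the same filter and were tested, out of 56748 identifiers.

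Mitochondrial carriers are small proteins of the inner mitochondrial membrane, each built from repeats of a conserved domain, that exchange metabolites, nucleotides, cofactors and ions between the cytosol and the matrix. A few members sit elsewhere, such as in the peroxisome or the outer mitochondrial membrane. The proximal tubule of the kidney is rich in mitochondria, and its reabsorption of filtered solutes, gluconeogenesis and ammonia production all depend on carrier traffic.

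The study collected deidentified mouse kidneys in the middle of the active and of the inactive period and made poly A libraries from 100 ng of total RNA each. There were 6 libraries each of active males, inactive males, active females and inactive females. The labels give tissue, sex and period, and no strain, age, genotype, clock time or lighting. They do not say that each library is a separate animal, so p-values measure the spread between these libraries, which may be partly technical. Whole kidney RNA mixes cell types, so fewer cells of a type and less RNA per cell cannot be told apart. Markers of every nephron segment in the lists used were detected in all groups, as were those of podocytes, endothelium and macrophages.

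Levels are the authors' normalized counts, that is gene counts divided by 1 factor per library. Where a group is given by 3 values, these are the lowest, the median and the highest of its 6 libraries. Log2 folds are differences of mean log2(normalized count + 1), ± SE, from limma fitted to all libraries, and a gene was called at a Benjamini-Hochberg adjusted p under 0.05 over all 17333 genes. A fold on this scale slightly understates the change of low genes.

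The deposited counts correspond to 31.04 to 39.30 M reads per library, with similar ranges in the 4 groups. After the authors' scaling the totals averaged 37.9 ± 1.17 M in active and 37.2 ± 0.952 M in inactive males, and 31.3 ± 0.909 M in active and 30.6 ± 0.830 M in inactive females (SD, n = 6 each). The scaled totals of males thus lie above those of females, which bears on every comparison of the sexes and is taken up there.

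Slc25 transcripts made up a small and nearly constant share of the kidney's poly A RNA. The 41 genes summed to 0.466 ± 0.0130% of the normalized counts in active males, 0.459 ± 0.0129% in inactive males, 0.457 ± 0.0114% in active females and 0.463 ± 0.00753% in inactive females (SD, n = 6 each). The median member had a mean normalized count of 1716, against 445 for all genes tested.

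Per kb of exon, the ADP/ATP carrier Slc25a5, which exchanges matrix ATP for cytosolic ADP, had by far the highest level, 18544 normalized counts per kb, with libraries from 16174 to 22376. Next came Slc25a3, the phosphate carrier that feeds ATP synthase, at 4706 per kb, and the second ADP/ATP carrier, Slc25a4, at 3905 per kb. The length used was that of all annotated exons of a gene together, which may differ from that of the transcripts present. It was 1646 bases for Slc25a5 and 5550 for Slc25a3, and most of the gap between these genes comes from it. Before division by length their mean normalized counts were 30523 and 26121. Slc25a39, a carrier needed for glutathione in the matrix, was at 3184 per kb and the dicarboxylate carrier Slc25a10 at 2116 per kb. The libraries of Slc25a3 and Slc25a4 overlapped on this scale (4183 to 5623 and 3496 to 4375), while among the 5 genes named so far the libraries of Slc25a39 and Slc25a10 spread widest relative to their lowest value (1862 to 5849.6 and 921 to 3488), and both of these genes differed between the sexes. At the other end Slc25a18, a glutamate carrier, was at 7.29 per kb, or 13.9 normalized counts on average, the lowest value inside the filter. The next lowest per kb were Slc25a53 at 11.8 and Slc25a47 at 20.1.

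**Figure D1:**
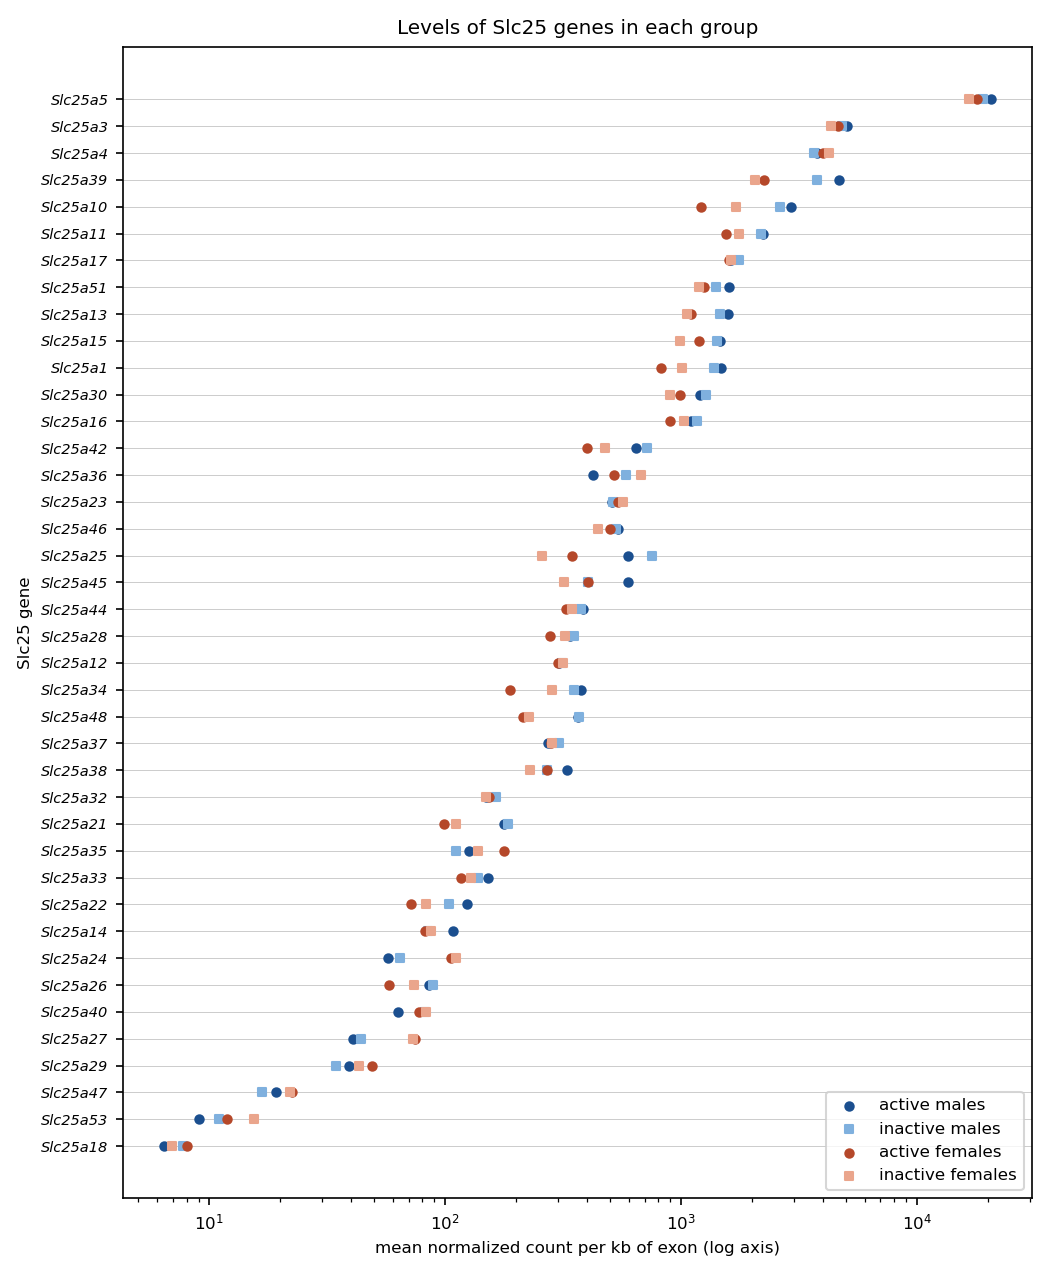
Mean normalized count per kb of exon of 40 of the Slc25 genes in each group of 6 libraries, on a log axis. Slc25a5 stands at the top near 18544 per kb and Slc25a18 at the bottom near 7.29 per kb, and for most genes the 4 group means lie close together compared with the distance between genes.

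The 5 family members just below the filter were Slc25a43 with a mean normalized count of 8.53, the ornithine carrier isoform Slc25a2 with 6.997, the testis ADP/ATP carrier Slc25a31 with 2.48, and Slc25a41 and Slc25a54 with 0.277 and 0.136. They had 218, 172, 62, 6 and 4 reads over all libraries and were not tested. The X-linked Slc25a43 had 36 reads in active males, 25 in inactive males, 64 in active females and 93 in inactive females.

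Part of the counts could not be assigned to single genes with certainty. For Slc25a5, 46.6% of the 50-base stretches of its transcripts also occur in transcripts of other genes, mainly the pseudogene Gm5560. For Slc25a36 this share was 11.8% (mainly Gm13217) and for Slc25a10 9.07% (mainly Gm11788). Exons of Slc25a35 overlap those of Rangrf, on the opposite strand, and 25.8% of its 50-base stretches are shared with it, and 12.6% of those of Slc25a33 are shared with Gm13068. The strand setting of the counting is not given in the sources used here, so the values of Slc25a35 and Slc25a33 are uncertain. Exons on the opposite strand also overlapped 8.92% of the exon length of Slc25a11, 7.86% of Slc25a37, 7.06% of Slc25a46 and 6.60% of Slc25a10. Some other members had smaller overlaps of this kind, and the same limit applies to all of these to a lesser degree.

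Between the active and the inactive period a minority of carriers changed, all by less than 2-fold. In males 6 of the 41 members were higher and 3 lower in the active period, 22.0% called, against 15.4% of all genes tested (8.43% higher and 6.95% lower). In females 5 were higher and 8 lower, 31.7% called, against 15.0% of all genes tested (7.97% higher and 6.98% lower). The members' median log2 fold was 0.03 in males and -0.06 in females, against 0.01 and -0.0016 for all genes tested, and the median size of the fold was 0.139 and 0.138, against 0.153 and 0.142. The active and inactive libraries did not overlap for 3 members in males and 5 in females, where 4.29% and 7.83% of all genes tested showed no overlap. At least 2-fold changes among called genes were found for none of the members in either sex (1.22% of all genes tested in males, 1.14% in females). The active libraries of either sex were compared with the inactive libraries of the same sex, so no library was shared between the 2 comparisons.

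**Figure D2:**
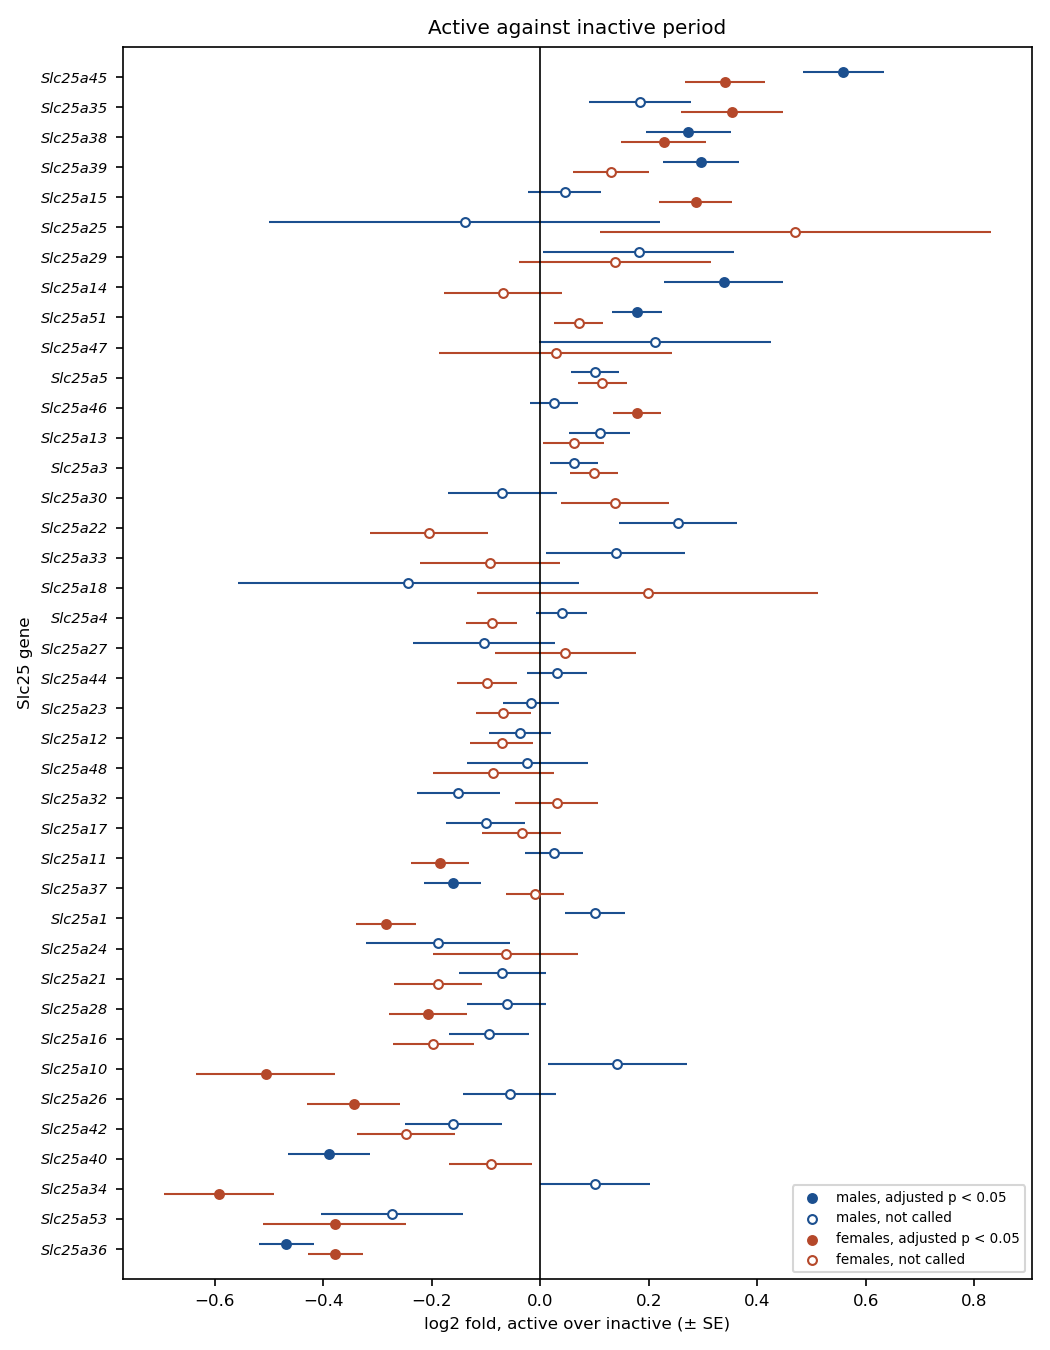
Log2 fold of active over inactive libraries (± SE) for 40 of the Slc25 genes, males in blue and females in red, with filled points for adjusted p under 0.05 in limma, ordered by the mean of both folds. Slc25a45 at the top and Slc25a36 at the bottom are filled in both sexes, while Slc25a34, Slc25a10 and Slc25a1 lie left of 0 and filled in females and right of 0 and open in males.

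Slc25a36, Slc25a45 and Slc25a38 were called in the same direction in both sexes, 3 of 41 members, against 4.67% of all genes tested, and no member was called in opposite directions. Slc25a36, a carrier of pyrimidine nucleotides into the matrix, had 3619.8, 4138 and 4450.3 normalized counts in active males, against 5287, 5542 and 6229 in inactive males. In females it had 4593, 5024 and 5341 in the active and 6162, 6464 and 6997 in the inactive period. In both sexes every active library lay below every inactive one, and the fall was 1.38-fold in males (log2 fold -0.47 ± 0.05, adjusted p = 4.84e-07) and 1.30-fold in females (log2 fold -0.38 ± 0.05, adjusted p = 4.13e-06).

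Slc25a45, reported to carry methylated basic amino acids, moved the other way. Its values were 1426, 1556 and 1961 in active males, against 983, 1088 and 1275 in inactive males, and 1057, 1090.4 and 1202 in active females, against 811, 864 and 983 in inactive females. Again the active and inactive libraries of a sex did not overlap, and the gene was 1.47-fold higher in active males (log2 fold 0.56 ± 0.07, adjusted p = 7.21e-06) and 1.27-fold higher in active females (log2 fold 0.34 ± 0.07, adjusted p = 0.00161). The difference between these folds did not pass the test (adjusted p = 0.259).

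Slc25a38, which brings glycine into the matrix for heme synthesis, was higher in the active period by a smaller step. It had 800.1, 844 and 1098 normalized counts in active males, against 668, 737 and 839 in inactive males, and 671, 742 and 812 in active females, against 583, 628 and 712 in inactive females. The groups overlapped in both sexes (log2 fold 0.27 ± 0.08, adjusted p = 0.018 in males and log2 fold 0.23 ± 0.08, adjusted p = 0.0481 in females). The call in males was lost without any 1 of 3 libraries (adjusted p up to 0.0644). These were active male replicates 2 and 5 and inactive male replicate 6. The male call was also lost with only the compared groups fitted (0.0518). The call in females was lost without any 1 of 13 libraries, namely active male replicate 1, inactive male replicates 1, 4 and 5, active female replicates 1, 2, 5 and 6 and inactive female replicates 1, 2, 3, 4 and 5 (adjusted p up to 0.114), and under 6 of 11 other settings (up to 0.102).

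**Figure D3:**
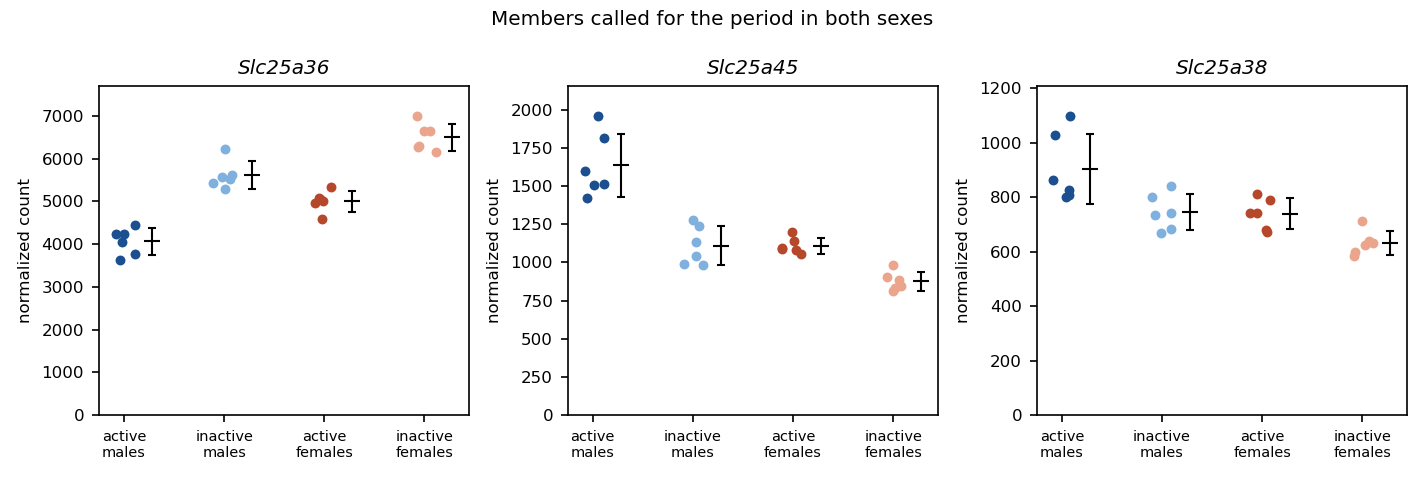
Normalized counts of Slc25a36, Slc25a45 and Slc25a38 in each of the 24 libraries, as points, with mean ± SD of each group of 6 beside them. For Slc25a36 the active points lie below the inactive ones of the same sex, for Slc25a45 they lie above, and for Slc25a38 the groups overlap.

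The promoters of these 3 genes are shown because they changed in both sexes. They were taken from RefSeq (build GRCm38.p6, from 250 bases before to 50 after the annotated start) and are printed 5′ to 3′ on the gene's strand, with matches to any of 5 motifs in capitals. The motifs were the E-box CACGTG bound by the clock factors Bmal1 and Clock, the D-box TTATGNAA of the PAR bZIP factors, the nuclear receptor half-site AGGTCA, the cyclic AMP response element TGACGTCA and the glucocorticoid response element, each searched on both strands. The Slc25a45 promoter lies at chr19:5877572-5877871 on the plus strand, the Slc25a36 promoter at chr9:97110992-97111291 on the minus strand and the Slc25a38 promoter at chr9:120110132-120110431 on the plus strand.
Slc25a45: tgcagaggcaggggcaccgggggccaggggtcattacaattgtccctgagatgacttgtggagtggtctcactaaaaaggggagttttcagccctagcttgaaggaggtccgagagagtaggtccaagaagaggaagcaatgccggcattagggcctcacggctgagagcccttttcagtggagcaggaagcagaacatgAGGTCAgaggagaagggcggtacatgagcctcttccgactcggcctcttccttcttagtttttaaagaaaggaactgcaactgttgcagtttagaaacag
Slc25a36: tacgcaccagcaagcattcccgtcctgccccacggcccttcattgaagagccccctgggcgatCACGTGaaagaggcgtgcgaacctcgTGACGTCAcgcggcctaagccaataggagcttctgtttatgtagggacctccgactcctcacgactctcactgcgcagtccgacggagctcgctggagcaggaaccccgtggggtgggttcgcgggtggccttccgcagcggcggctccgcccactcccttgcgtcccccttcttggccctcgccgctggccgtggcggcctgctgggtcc
Slc25a38: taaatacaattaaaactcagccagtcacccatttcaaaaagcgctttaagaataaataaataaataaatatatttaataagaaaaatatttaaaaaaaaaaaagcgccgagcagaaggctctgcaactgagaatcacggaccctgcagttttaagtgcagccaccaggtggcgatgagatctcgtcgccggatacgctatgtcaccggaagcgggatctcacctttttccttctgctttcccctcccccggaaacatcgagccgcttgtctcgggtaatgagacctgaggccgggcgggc
The capitals in Slc25a45 mark a half-site that begins 50 bases before the annotated start. Those in Slc25a36 mark an E-box that begins 187 bases and a cyclic AMP response element that begins 161 bases before it, and these 2 motifs do not overlap. In Slc25a38 none of the 5 motifs was found in this window.

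Of the 41 members 32 had a promoter in the table, 42 promoters in all. An E-box stood in 7 of these 42, in promoters of Slc25a1, Slc25a13, Slc25a14, Slc25a15, Slc25a33 and Slc25a36, and in 7.15% of all 32851 promoters. The half-site stood in those of Slc25a34, Slc25a39, Slc25a45 and Slc25a47 (16.3% of all promoters), the cyclic AMP response element in Slc25a25 and Slc25a36 (1.79%) and the D-box in Slc25a21 (3.38%). The glucocorticoid response element was in no member's window (0.475% of all promoters). The member promoters had a median GC content of 59.3%, against 52.7% for all promoters, and CACGTG and TGACGTCA each contain CG. Among the members with no entry were Slc25a26, Slc25a27, Slc25a32, Slc25a35, Slc25a37, Slc25a44, Slc25a46 and Slc25a51.

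Of the 4 carriers of di- and tricarboxylic acids, Slc25a1, Slc25a10, Slc25a11 and Slc25a21, 3 fell in active females, where 6.98% of all genes tested were called lower, and none was called in males. Among the 4, the difference of the period change between the sexes passed for Slc25a1 alone (adjusted p = 0.00908, against 0.0554 for Slc25a10, 0.117 for Slc25a11 and 0.612 for Slc25a21). Slc25a1, which exports citrate to the cytosol in exchange for malate, had 1654, 1788 and 1881 normalized counts in active females, against 2046, 2164 and 2381 in inactive females. Every active female library was below every inactive one, a 1.22-fold fall (log2 fold -0.28 ± 0.06, adjusted p = 5.49e-04). In males it had 2849, 3155 and 3538 in the active and 2812, 2963 and 3170.0 in the inactive period, with overlapping libraries and a fold that did not pass (log2 fold 0.10 ± 0.06, adjusted p = 0.224).

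Slc25a10, which exchanges malate or succinate for phosphate, had 3182, 4336 and 5130.1 in active females, against 4642, 5672 and 7659.7 in inactive females, a 1.42-fold fall (log2 fold -0.51 ± 0.13, adjusted p = 0.00859) with some overlap of the libraries. In males its values were 7921, 10195 and 12049 in the active and 7317, 9558 and 9844 in the inactive period (log2 fold 0.14 ± 0.13, adjusted p = 0.489), and the libraries overlapped widely. Slc25a11, the oxoglutarate/malate carrier of the malate-aspartate shuttle, had 3063, 3254 and 3577 in active females, against 3516, 3712 and 3929.7 in inactive females, with a slight overlap (log2 fold -0.18 ± 0.05, adjusted p = 0.0162). Slc25a21, which carries 2-oxodicarboxylates such as oxoadipate, had 406, 474 and 597 in active and 492, 552 and 584 in inactive females and did not pass (log2 fold -0.19 ± 0.08, adjusted p = 0.12).

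Slc25a34, which has no established substrate and resembles a yeast oxaloacetate carrier, showed the largest period change of any member. It had 412, 463 and 627 normalized counts in active females, against 585, 749 and 974 in inactive females, a 1.51-fold fall (log2 fold -0.59 ± 0.10, adjusted p = 1.17e-04). The highest active female library lay just above the lowest inactive one. In males it had 902, 998 and 1102 in the active and 838, 939 and 1027 in the inactive period (log2 fold 0.10 ± 0.10, adjusted p = 0.542). Its close relative Slc25a35 rose in active females, with 540.1, 641 and 799, against 429, 511 and 553 in inactive females (log2 fold 0.35 ± 0.09, adjusted p = 0.00898), and the groups overlapped. In males Slc25a35 had 426, 461 and 499 in the active and 362, 401 and 466 in the inactive period and did not pass (adjusted p = 0.182).

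The period change differed between the sexes for 2 of the 41 members, 4.88%, against 2.71% of all genes tested (1.41% with the male change above the female one, as in both members, and 1.30% below it). These were Slc25a34, with a male minus female difference in log2 fold of 0.69 ± 0.14 (adjusted p = 0.00978), and Slc25a1, with 0.39 ± 0.08 (adjusted p = 0.00908). Both fell in active females and neither was called in males. For Slc25a10 the difference of 0.65 ± 0.18 missed the threshold at adjusted p = 0.0554. It passed under 5 of 11 other settings, including edgeR and DESeq2 on the recovered reads, and without any 1 of 3 libraries, active male replicate 1, active female replicate 2 and inactive female replicate 5 (adjusted p from 0.00429 to 0.120 over all of these settings). For the other members called in 1 sex alone the difference between the sexes did not pass, so they are not shown to differ between the sexes. Among these Slc25a15, with a difference of -0.24 ± 0.09 (adjusted p = 0.157), passed without inactive female replicate 4 (adjusted p = 0.0130). Slc25a22, called for the period in neither sex, had a difference of 0.46 ± 0.15 (adjusted p = 0.0948) and passed with library weights, with the replicate block and without active male replicate 1 (adjusted p from 0.0384 to 0.178 over all settings).

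**Figure D4:**
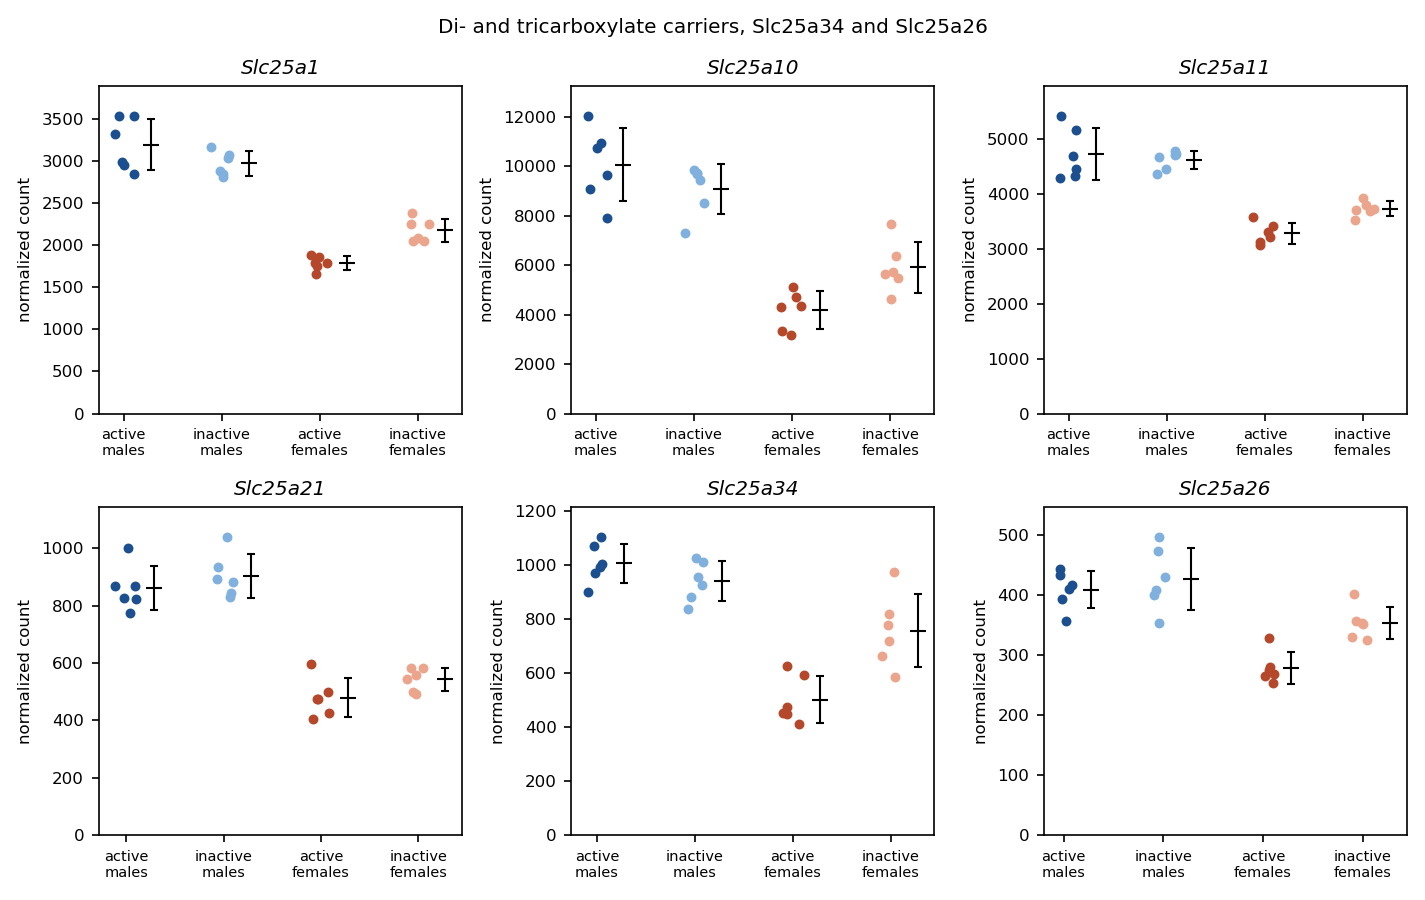
Normalized counts of the 4 di- and tricarboxylate carriers, of Slc25a34 and of the S-adenosylmethionine carrier Slc25a26 in each of the 24 libraries, as points, with mean ± SD of each group of 6 beside them. For each gene the active females hold the lowest group mean, and for Slc25a1 no active female library reaches an inactive one.

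Of 46 cell type markers tested for the period, 6 were higher and 2 lower in active females, 17.4% called, close to the 15.0% of all genes tested. In active males 3 were higher and 2 lower, 10.9% called, against 15.4% of all genes tested. Of the 5 markers of the early proximal tubule, Slc34a1, a sodium phosphate cotransporter, was lower in active females (log2 fold -0.24, adjusted p = 0.00707) and its period change differed between the sexes (0.35, adjusted p = 0.0228). The summed normalized counts of these 5 markers were 160209.5 to 203635 in active and 186702 to 210259 in inactive females, which overlap. Of the 4 intercalated cell markers 3 were higher in active females, with sums of 9558 to 14248, against 8358 to 9761 in inactive females. No marker of the early proximal tubule or of intercalated cells was at 0 in a whole group. Their part in the carrier changes was not tested.

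Among the amino acid carriers, none of the 4 for aspartate and glutamate was called for the period in either sex. These were Slc25a12 and Slc25a13, the 2 aspartate/glutamate carriers of the malate-aspartate shuttle, and the glutamate carriers Slc25a18 and Slc25a22. Slc25a22 had log2 folds of 0.25 ± 0.11 in males (adjusted p = 0.111) and -0.21 ± 0.11 in females (adjusted p = 0.226). Of the 4 carriers for basic, branched and small amino acids, Slc25a15 and Slc25a38 rose in active females and Slc25a38 in active males. Slc25a15, the ornithine carrier of the urea cycle and of proline synthesis, had 5944, 6821 and 7131 normalized counts in active females, against 4692, 5244 and 7305 in inactive females (log2 fold 0.29 ± 0.07, adjusted p = 0.00323). The groups overlapped through 1 inactive library at 7305. In males it had 8001, 8102 and 8604 in the active and 7684, 7965 and 8279.9 in the inactive period (log2 fold 0.05 ± 0.07, adjusted p = 0.699). Slc25a29, for lysine and arginine, and Slc25a44, for branched-chain amino acids, were not called for the period.

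Among the nucleotide and cofactor carriers, Slc25a26 fell in active females beside Slc25a36, and Slc25a51 rose in active males. Slc25a26, which imports S-adenosylmethionine for mitochondrial methylation, had 253, 272 and 328 in active females, against 326, 352 and 402 in inactive females (log2 fold -0.34 ± 0.09, adjusted p = 0.00574). The overlap came from 1 active library at 328, and males were at 356, 414 and 443 in the active and 354, 419 and 496 in the inactive period (adjusted p = 0.709).

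The NAD+ carrier Slc25a51 rose in active males, at 7899, 8875 and 9345, against 7449.7, 7715 and 7948 in inactive males (log2 fold 0.18 ± 0.05, adjusted p = 0.00833). Its groups overlapped slightly, and in females the log2 fold was 0.07 ± 0.05 (adjusted p = 0.337). The coenzyme A carriers Slc25a16 and Slc25a42, the peroxisomal cofactor carrier Slc25a17, the folate carrier Slc25a32 and the second pyrimidine nucleotide carrier Slc25a33 were not called for the period in either sex. Slc25a33 had log2 folds of 0.14 ± 0.13 in males and -0.09 ± 0.13 in females, with 95% intervals of -0.13 to 0.41 and -0.36 to 0.18.

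The glutathione carriers Slc25a39 and Slc25a40 moved apart in males. Slc25a39 rose in active males, with 10096, 12519 and 16122 normalized counts, against 9878, 10331 and 11070.1 in inactive males (log2 fold 0.30 ± 0.07, adjusted p = 0.00479), and the groups overlapped. Slc25a40 fell, with 437, 540.5 and 585 in active males, against 650.4, 687 and 743 in inactive males, and its groups did not overlap (log2 fold -0.39 ± 0.08, adjusted p = 8.83e-04). In females neither passed (Slc25a39 log2 fold 0.13 ± 0.07, adjusted p = 0.232, and Slc25a40 -0.09 ± 0.08, adjusted p = 0.485).

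Of the iron carriers, mitoferrin 1 (Slc25a37), best known from developing red cells, was lower in active males, at 1506, 1654 and 1732, against 1689, 1826 and 2001 in inactive males (log2 fold -0.16 ± 0.05, adjusted p = 0.0371). The groups overlapped slightly, and the call was lost without any 1 of 6 libraries (adjusted p up to 0.107). These were active male replicates 2, 4 and 6 and inactive male replicates 1, 3 and 6. The call of Slc25a37 was also lost with no filter and with only the compared groups fitted (up to 0.0907). Mitoferrin 2 (Slc25a28), its widely expressed relative, was lower in active females, at 975, 1025 and 1147, against 1115, 1207 and 1318 in inactive females, with overlap (log2 fold -0.21 ± 0.07, adjusted p = 0.0497). This call was lost without any 1 of 15 libraries, active male replicates 1, 3 and 6, inactive male replicates 2, 3, 4 and 6, active female replicates 2, 4, 5 and 6 and inactive female replicates 2, 3, 4 and 5 (adjusted p up to 0.116), and with a pseudocount of 0.5, no filter or a plain prior (up to 0.102). Erythroid marker sums were 5440.4 to 7095 in active males, against 2277 to 5203 in inactive males, which do not overlap, and 2616 to 8205 in active females, against 1301 to 6838 in inactive females. Of the 5 erythroid markers 4 could be tested, none was called for the period and none was at 0 in a whole group. Their part in the values of Slc25a37, Slc25a28 and Slc25a38 was not tested.

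Of the 3 carriers that resemble uncoupling proteins, Slc25a14 rose in active males, at 227, 241 and 309, against 185, 189.9 and 249 in inactive males (log2 fold 0.34 ± 0.11, adjusted p = 0.0338). The groups overlapped through 1 inactive library, and the call was lost without any 1 of 7 libraries (adjusted p up to 0.103). These were active male replicates 2 and 5 and inactive male replicates 1, 2, 3, 5 and 6. The call of Slc25a14 was also lost with no filter, the upper quartile, equal totals, only the compared groups or library weights (up to 0.0805). In females its log2 fold was -0.07 ± 0.11 (adjusted p = 0.749), and Slc25a27 and the kidney mitochondrial carrier Slc25a30 were not called in either sex. Slc25a46, a protein of the outer membrane that acts in mitochondrial shape, was higher in active females, at 2568, 2644 and 3016, against 2292, 2381 and 2583 in inactive females (log2 fold 0.18 ± 0.04, adjusted p = 0.00571), and the groups overlapped slightly. Slc25a53, without a known substrate, was lower in active females, at 77.8, 95.0 and 108, against 109.8, 125 and 131 in inactive females. Its groups did not overlap (log2 fold -0.38 ± 0.13, adjusted p = 0.0489), but the call was lost without any 1 of 17 libraries, active male replicates 3 and 6, inactive male replicates 1, 2, 3, 4 and 5, active female replicates 1, 2, 4, 5 and 6 and inactive female replicates 1, 3, 4, 5 and 6 (adjusted p up to 0.120), and with no filter (0.122).

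None of the 3 carriers with the highest levels was called for the period. Slc25a5 had log2 folds of 0.10 ± 0.04 in males (adjusted p = 0.123) and 0.11 ± 0.04 in females (adjusted p = 0.0844). For Slc25a3 they were 0.06 ± 0.04 and 0.10 ± 0.04 (adjusted p = 0.366 and 0.141), and for Slc25a4 0.04 ± 0.05 and -0.09 ± 0.05 (adjusted p = 0.611 and 0.223). None of the 3 ATP-Mg/phosphate carriers, which set the adenine nucleotide content of the matrix under control of calcium, was called for the period. Among them Slc25a25 ranged most, with 3564, 4215 and 7955 in active and 2262, 5164 and 11708 in inactive males, and 1589, 3001 and 3549.7 in active and 1232, 1719 and 3107 in inactive females. The choline carrier Slc25a48 and Slc25a47, a carrier best known from liver, were not called for the period either. In all, 22 of the 41 members were called for the period in neither sex, and the 32 members not called in males had log2 folds of -0.27 to 0.25 there and the 28 not called in females -0.25 to 0.47. Of those called in neither sex, Slc25a16 and Slc25a42 passed in females under 3 of 11 other settings each, the upper quartile and equal totals among them (lowest adjusted p = 0.0216 and 0.0131 over all settings).

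Males and females differed in far more carriers than the periods did, and in the authors' scaling most were higher in males. In the active period 24 members were higher and 6 lower in males, 73.2% called, against 60.6% of all genes tested (30.1% higher and 30.5% lower). In the inactive period 21 were higher and 7 lower in males, 68.3% called, against 55.7% of all genes tested (27.9% higher and 27.8% lower). The male and female libraries did not overlap for 23 members in the active and 15 in the inactive period, against 36.3% and 32.3% of all genes tested. The median log2 fold of the members was 0.27 in the active and 0.15 in the inactive period, against -0.05 and -0.04 for all genes tested. At least 2-fold differences were called for 3 members in the active and 1 in the inactive period (10.1% and 8.69% of all genes tested). The same direction was called in both periods for 25 members, 20 higher and 5 lower in males, against 44.9% of all genes tested.

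The direction of many of these sex differences depends on the scaling. With each library scaled to the same total, the median of all genes tested shifted by -0.272 on the log2 scale in the active and by -0.277 in the inactive period. In that scaling 12 members were called higher and 18 lower in active males, and 9 higher and 17 lower in inactive males. Of all 17333 genes tested, 2635 were then called higher and 8822 lower in active males, and 2051 higher and 9054 lower in inactive males. Members not called in the authors' scaling but called lower in males with equal totals included Slc25a4, Slc25a23 and Slc25a37 in the active and Slc25a14, Slc25a37 and Slc25a44 in the inactive period. Kap, an androgen-dependent kidney transcript, held 4.06% of the normalized counts in active and 3.71% in inactive males, against 1.05% in active and 1.01% in inactive females. Relative to the median of all genes tested the members were shifted by 0.316 in the active period and by 0.190 in the inactive period in the authors' scaling, and by 0.313 and 0.187 with equal totals. Of the 41 members 30 lay above that median in the active and 32 in the inactive period in the authors' scaling, and 28 and 32 with equal totals. The calls of 18 members in the active and 15 in the inactive period held under every setting tried, and directions given for single genes are of these members unless another setting is named.

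**Figure D5:**
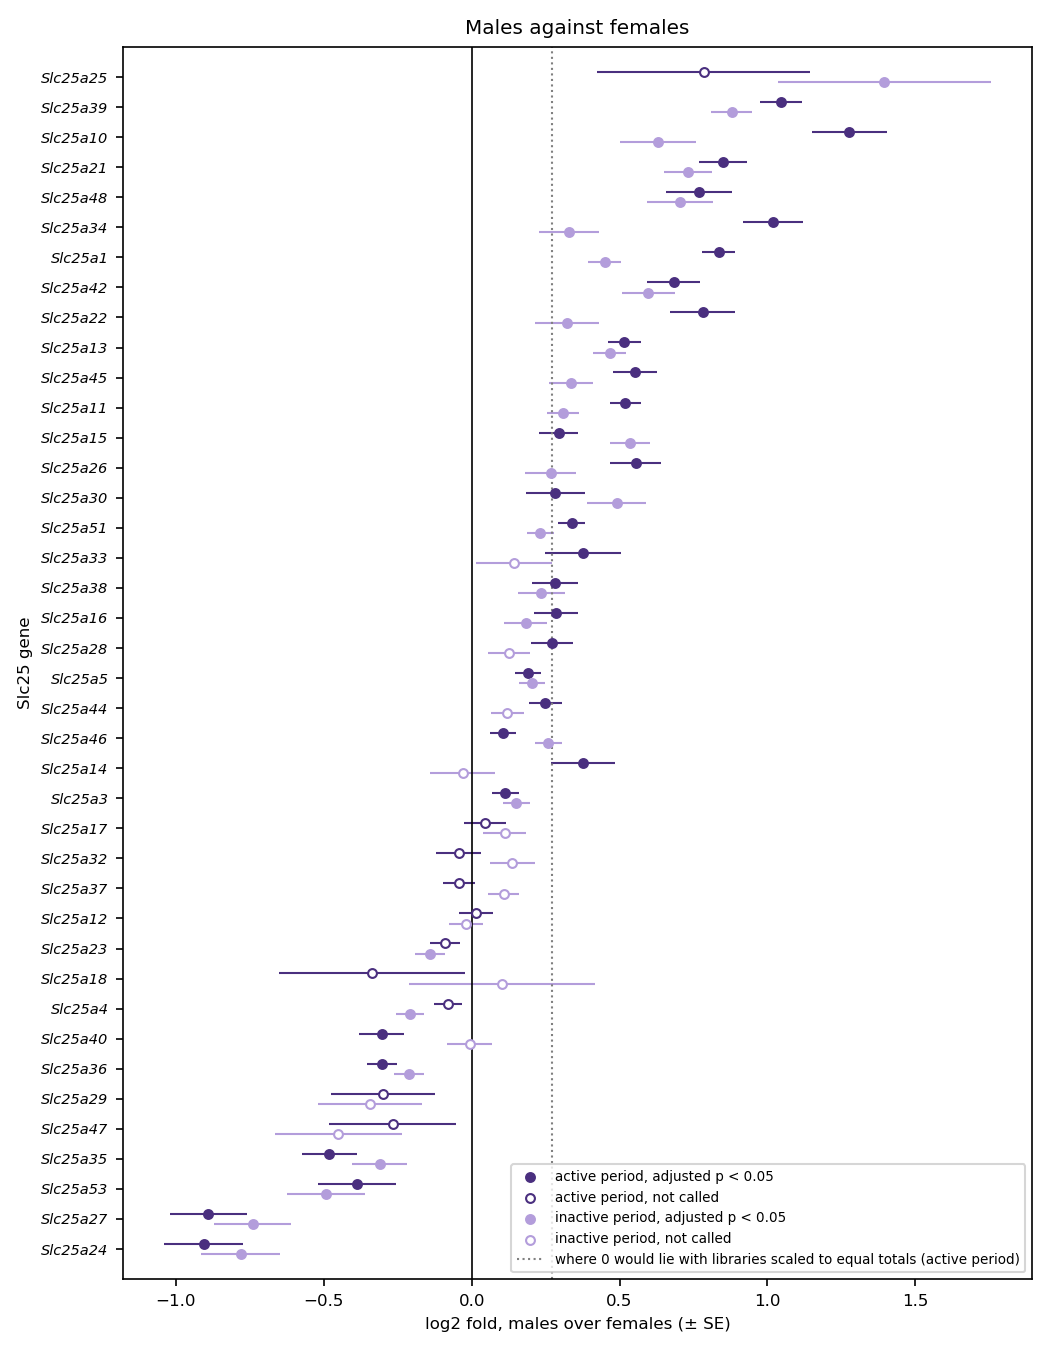
Log2 fold of males over females (± SE) in the active and inactive period for 40 of the Slc25 genes, filled where adjusted p was under 0.05 in limma. The dotted line marks where 0 would lie in the active period with all libraries scaled to equal totals, so that genes between 0 and this line, among them Slc25a3, Slc25a5, Slc25a28, Slc25a44 and Slc25a46, turn from higher to lower in males.

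All 4 di- and tricarboxylate carriers were higher in males in both periods, and these calls held under every setting except that of Slc25a11 in the inactive period, which was lost with equal totals (adjusted p = 0.586). Slc25a10 had the largest difference of the active period, with 7921, 10195 and 12049 normalized counts in active males, against 3182, 4336 and 5130.1 in active females (log2 fold 1.277 ± 0.13, adjusted p = 1.32e-08). No male library reached down to a female one, while in the inactive period males had 7317, 9558 and 9844 and females 4642, 5672 and 7659.7, with some overlap (log2 fold 0.63 ± 0.13, adjusted p = 2.38e-04). Slc25a1 had 2849, 3155 and 3538 in active males, against 1654, 1788 and 1881 in active females (log2 fold 0.84 ± 0.06, adjusted p = 9.90e-14), and 2812, 2963 and 3170.0 in inactive males, against 2046, 2164 and 2381 in inactive females (log2 fold 0.45 ± 0.06, adjusted p = 5.61e-08). The sexes were apart in both periods. Slc25a21 had 773, 848 and 1001 in active males, against 406, 474 and 597 in active females (log2 fold 0.85 ± 0.08, adjusted p = 2.05e-10), and 829, 886 and 1038 in inactive males, against 492, 552 and 584 in inactive females (log2 fold 0.73 ± 0.08, adjusted p = 5.83e-09), again without overlap. For Slc25a11 the log2 folds were 0.52 ± 0.05 (adjusted p = 9.85e-10) and 0.31 ± 0.05 (adjusted p = 1.17e-05).

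Slc25a34 was higher in males, at 902, 998 and 1102 in active males, against 412, 463 and 627 in active females, without overlap (log2 fold 1.02 ± 0.10, adjusted p = 7.14e-10). In the inactive period the values were 838, 939 and 1027 in males and 585, 749 and 974 in females, with a log2 fold of 0.33 ± 0.10 (adjusted p = 0.00711) that did not pass with equal totals (adjusted p = 0.694). Its relative Slc25a35 was lower in males in both periods (log2 fold -0.48 ± 0.09, adjusted p = 5.62e-05 in the active and log2 fold -0.31 ± 0.09, adjusted p = 0.0057 in the inactive period).

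The glutathione carrier Slc25a39 had 10096, 12519 and 16122 in active males, against 5839, 6170.1 and 6558 in active females (log2 fold 1.05 ± 0.07, adjusted p = 1.22e-13). Inactive males had 9878, 10331 and 11070.1, against 5133, 5706 and 6054 in inactive females (log2 fold 0.88 ± 0.07, adjusted p = 7.64e-12). The sexes were far apart in both periods, with the lowest male library at 9878 and the highest female library at 6558. Slc25a40 was lower in active males, at 437, 540.5 and 585, against 591, 640.2 and 721 in active females (log2 fold -0.30 ± 0.08, adjusted p = 0.00101), without overlap. Its log2 fold in the inactive period was -0.01 ± 0.08 (adjusted p = 0.948), with a 95% interval of -0.17 to 0.15, whereas with equal totals it was called lower in inactive males (log2 fold -0.29, adjusted p = 0.00144).

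Among the ATP-Mg/phosphate carriers, which respond to calcium, Slc25a24 was lower in males, at 121, 204 and 240.5 in active males, against 306, 369 and 417 in active females (log2 fold -0.91 ± 0.13, adjusted p = 8.67e-07). In the inactive period it had 170.1, 231 and 250.3 in males, against 311, 375 and 446 in females (log2 fold -0.78 ± 0.13, adjusted p = 1.09e-05), and the sexes did not overlap in either period. Slc25a25 was higher in inactive males, at 2262, 5164 and 11708, against 1232, 1719 and 3107 in inactive females (log2 fold 1.39 ± 0.36, adjusted p = 0.00253), the largest sex difference of that period and the one with the widest spread. The inactive groups overlapped. In the active period Slc25a25 had 3564, 4215 and 7955 in males and 1589, 3001 and 3549.7 in females and the groups did not overlap, yet the log2 fold of 0.79 ± 0.36 did not pass (adjusted p = 0.0658). It passed with only the compared groups fitted, with DESeq2 on the recovered reads and without inactive male replicate 1 or 2 (adjusted p from 0.0183 to 0.206 over all settings). Slc25a23 was lower in inactive males (log2 fold -0.14 ± 0.05, adjusted p = 0.021), a call lost without inactive male replicate 6 (adjusted p = 0.0551).

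The uncoupling-protein-like Slc25a27 was lower in males, at 124, 157 and 215 in active males, against 272, 296 and 316 in active females (log2 fold -0.89 ± 0.13, adjusted p = 7.56e-07), and at 131, 179 and 209 in inactive males, against 222, 284 and 342 in inactive females (log2 fold -0.74 ± 0.13, adjusted p = 1.61e-05). Every male library lay below every female library of the same period. Slc25a30 was higher in males (log2 fold 0.28 ± 0.10, adjusted p = 0.0175 in the active and log2 fold 0.49 ± 0.10, adjusted p = 1.91e-04 in the inactive period), but not with equal totals (adjusted p = 0.953 and 0.0545), nor in the active period with the upper quartile. Slc25a14 was higher in active males (log2 fold 0.38 ± 0.11, adjusted p = 0.00384), also not with equal totals (adjusted p = 0.421), and had a log2 fold of -0.03 ± 0.11 in the inactive period (adjusted p = 0.83).

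The glutamate carrier Slc25a22 was higher in active males, at 582, 793 and 866, against 384, 419.6 and 483 in active females, without overlap (log2 fold 0.78 ± 0.11, adjusted p = 3.62e-07). Its log2 fold in the inactive period was 0.32 ± 0.11 (adjusted p = 0.013), and the call was lost with the upper quartile and equal totals (adjusted p up to 0.754). Slc25a13, the aspartate/glutamate carrier citrin, was higher in males in both periods without overlap (log2 fold 0.52 ± 0.06, adjusted p = 3.24e-09 and log2 fold 0.47 ± 0.06, adjusted p = 2.88e-08). Its counterpart Slc25a12 was called in neither period, with log2 folds of 0.01 ± 0.06 and -0.02 ± 0.06 and 95% intervals of -0.11 to 0.13 and -0.14 to 0.10. With equal totals it was called lower in males in both periods (log2 fold -0.26, adjusted p = 1.00e-04 and log2 fold -0.30, adjusted p = 1.84e-05). The ornithine carrier Slc25a15 was higher in males in both periods (log2 fold 0.29 ± 0.07, adjusted p = 3.85e-04 and log2 fold 0.53 ± 0.07, adjusted p = 6.91e-08), though in the active period not with equal totals (adjusted p = 0.792).

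Among the cofactor carriers, the coenzyme A carrier Slc25a42 was higher in males, at 3404, 3828 and 4546 in active males, against 2130.0, 2309 and 2984 in active females (log2 fold 0.68 ± 0.09, adjusted p = 2.82e-07), and at 3374, 4501 and 4822 in inactive males, against 2372, 2771 and 3311 in inactive females (log2 fold 0.60 ± 0.09, adjusted p = 2.94e-06). The sexes did not overlap in either period. Slc25a36 was lower in males in both periods (log2 fold -0.30 ± 0.05, adjusted p = 7.55e-06 and log2 fold -0.21 ± 0.05, adjusted p = 7.75e-04). Slc25a26 was higher in active males (log2 fold 0.55 ± 0.09, adjusted p = 2.12e-06), and in inactive males it was higher in the authors' scaling (log2 fold 0.27 ± 0.09) and at -0.012 with equal totals. Slc25a51 was higher in active and in inactive males in the authors' scaling (log2 folds 0.34 ± 0.05 and 0.23 ± 0.05) and with equal totals did not pass in the active period (adjusted p = 0.160) and turned to -0.049 in the inactive one. Slc25a17 and Slc25a32 were called in neither period in the authors' scaling, but with equal totals both were called lower in active males and Slc25a17 also in inactive males.

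The choline carrier Slc25a48 was higher in males, at 1037, 1211 and 1522 in active males, against 562, 725 and 856 in active females (log2 fold 0.77 ± 0.11, adjusted p = 1.32e-06), and at 1038, 1271 and 1421 in inactive males, against 597, 779 and 868 in inactive females (log2 fold 0.70 ± 0.11, adjusted p = 5.88e-06). The sexes did not overlap in either period. Slc25a45 was higher in males (log2 fold 0.55 ± 0.07, adjusted p = 1.78e-07 in the active and log2 fold 0.34 ± 0.07, adjusted p = 3.16e-04 in the inactive period), the second of these calls being lost with equal totals (adjusted p = 0.496). Slc25a53 was lower in males in both periods (log2 fold -0.39 ± 0.13, adjusted p = 0.0122 and log2 fold -0.49 ± 0.13, adjusted p = 0.0021). Slc25a38, Slc25a16 and Slc25a46 were higher in males in both periods in the authors' scaling, with log2 folds of 0.11 to 0.28. With equal totals these genes turned or lost the call, and Slc25a46 was called lower in active males (log2 fold -0.17, adjusted p = 0.00178). The call of Slc25a38 in the inactive period was also lost with the upper quartile. The call of Slc25a46 in the active period was also lost without any 1 of 7 libraries (adjusted p up to 0.0959). These were active male replicates 3, 4 and 6 and active female replicates 1, 3, 5 and 6. No filter, the upper quartile, only the compared groups or the replicate block ended this call too. For Slc25a16 the call in the inactive period was lost without any 1 of 8 libraries (adjusted p up to 0.0920). These were inactive male replicates 3, 4, 5 and 6 and inactive female replicates 2, 3, 4 and 5. It was lost as well with no filter, the upper quartile, a plain prior or the replicate block.

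The 2 ADP/ATP carriers differed in their sex balance, with Slc25a5 at log2 folds of 0.19 ± 0.04 and 0.20 ± 0.04 in the active and inactive period, and Slc25a4 at -0.08 ± 0.05 and -0.21 ± 0.05. The call of Slc25a4 in the inactive period (adjusted p = 4.09e-04), lower in males, held under every setting. Slc25a5 instead turned from higher to lower in males with equal totals (-0.084 in the active and -0.076 in the inactive period). It was then called lower in active males (adjusted p = 0.0448) but not in inactive males (adjusted p = 0.0738). Slc25a3, the phosphate carrier, turned as well (log2 folds 0.11 ± 0.04 and 0.15 ± 0.04, with equal totals -0.16 and -0.13). With equal totals Slc25a3 was called lower in males in both periods (adjusted p = 4.01e-04 and 0.00363). Its call in the active period in the authors' scaling was also lost without any 1 of 4 libraries (adjusted p up to 0.0806). These were active male replicates 2 and 5 and active female replicates 1 and 6. The upper quartile ended the calls of Slc25a3 in both periods, and fitting only the compared groups that in the active one. Slc25a28, Slc25a33 and Slc25a44 were higher in active males in the authors' scaling and not with equal totals. In all, 6 members were called in none of the 5 comparisons, namely Slc25a12, Slc25a17, Slc25a18, Slc25a29, Slc25a32 and Slc25a47. With equal totals Slc25a12, Slc25a17, Slc25a29 and Slc25a47 were called lower in males in both periods and Slc25a32 in the active one.

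Other genes of mitochondrial transport and of the pathways around the carriers were taken from 12 lists, of which 66 of 67 genes were tested. For the period 11 were higher and 4 lower in active males, 22.7% called, against 15.4% of all genes tested, and 6 were higher and 4 lower in active females, 15.2% called, which is close to the 15.0% of all genes tested. Tfrc, the receptor for iron-bound transferrin, rose in active males (log2 fold 0.60, adjusted p = 7.74e-04) and active females (log2 fold 0.83, adjusted p = 1.11e-05), and Ppargc1b, a coactivator of mitochondrial biogenesis, fell in both (log2 fold -0.56, adjusted p = 0.00487 and log2 fold -0.55, adjusted p = 0.00427). Got1, the cytosolic aspartate aminotransferase of the malate-aspartate shuttle, rose in active females (log2 fold 0.39, adjusted p = 8.47e-05).

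Gpd1, the cytosolic enzyme of the glycerol phosphate shuttle, was higher in active males (log2 fold 0.25, adjusted p = 0.00845) and lower in active females (log2 fold -0.23, adjusted p = 0.0131). The difference between the sexes passed for Gpd1 (0.49, adjusted p = 0.00505) and for Timm13, a chaperone of carrier import (0.51, adjusted p = 0.0487). These were 2 of the 66 genes, 3.03%, close to the 2.71% of all genes tested. No gene of the lists for the pyruvate carrier, the sideroflexins and the ammonia and ornithine enzymes was called for the period in either sex. Of the porins 1 was called in each sex, Vdac1 in males (log2 fold 0.16, adjusted p = 0.0372) and Vdac3 in females (log2 fold 0.18, adjusted p = 0.00552).

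Between the sexes 42 of the 66 genes were higher and 10 lower in active males, and 39 were higher and 8 lower in inactive males, in the authors' scaling, and 25 higher and 17 lower and 23 higher and 21 lower with equal totals. Among all genes tested 30.1% were higher and 30.5% lower in active males, and 27.9% and 27.8% in inactive males, in the authors' scaling. With equal totals 2635 of all 17333 genes were higher and 8822 lower in active males, and 2051 and 9054 in inactive males. The median log2 fold of the 66 genes was 0.33 in both periods, against -0.05 and -0.04 for all genes tested, and 0.06 and 0.05 with equal totals, against -0.32 in both for all genes. The genes of carrier import were among those higher in males, 8 of 10 in either period and, with equal totals, 6 in the active and 5 in the inactive period, such as Tomm70a (log2 fold 0.58, adjusted p = 9.26e-11 in the active period) and Timm13 (log2 fold 0.99, adjusted p = 1.70e-09). The porins were higher for 3 of 3 genes in active and 2 of 3 in inactive males, but with equal totals only Vdac1 was called higher and Vdac2 was called lower in both periods. Both subunits of the pyruvate carrier were higher in either period, and with equal totals only Mpc2 in the active period was. Among the ammonia and ornithine enzymes, the ornithine aminotransferase Oat (log2 fold -1.72, adjusted p = 1.14e-19) and Arg2 (log2 fold -2.51, adjusted p = 2.00e-13), the arginase that makes ornithine from arginine, were lower in active males. Ppargc1a, the coactivator related to Ppargc1b, was lower in active males (log2 fold -0.70, adjusted p = 2.00e-11) and inactive males (log2 fold -0.45, adjusted p = 1.62e-07).

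Markers of cell types differed between the sexes too. Of 46 markers tested 9 were higher and 24 lower in active males, and 6 were higher and 24 lower in inactive males (6 and 26, and 5 and 30, with equal totals). Of all genes tested 30.1% were higher and 30.5% lower in active males, and 27.9% and 27.8% in inactive males. The summed normalized counts of the 5 markers of the straight proximal tubule were 113649.6 to 135070.0 in active and 111882 to 141849 in inactive males, against 17007 to 27582 in active and 17233 to 24744 in inactive females. Of these 5, 4 were higher and 1 lower in males in either period, or 3 and 1 in the inactive period with equal totals. Sums of the 5 early proximal tubule markers were 206367 to 228299 in active and 198904 to 210232 in inactive males, against 160209.5 to 203635 in active and 186702 to 210259 in inactive females. By gene, though, 1 of these 5 was higher and 4 were lower in males in either period in the authors' scaling. Their median log2 fold was -0.21 in the active and -0.32 in the inactive period. Podocyte sums were 7370.4 to 8757 and 7315 to 8988 in active and inactive males, against 13941 to 15144 and 12477 to 14377 in active and inactive females, and endothelial markers were lower in males for 4 of 4 genes in either period. None of these markers was at 0 in a whole group. Their part in the sex differences of the carriers was not tested.

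Markers of adipocytes varied between libraries, and those of adrenal and skeletal muscle were low. Adipocyte marker sums ranged from 35.4 to 1145 in active and 148 to 789 in inactive males, and from 47.7 to 1197 in active and 76.4 to 1304 in inactive females. Adrenal sums stayed at 252 or below, with 2 or 3 of the 5 genes at 0 in each group, and muscle markers were at most 7.78 except in the inactive females, where 1 library reached 183. None of the 4 adipocyte markers tested was called in any comparison, and the adrenal and steroidogenic gene Star was lower in males in both periods (log2 fold -0.33, adjusted p = 0.0219 in the active period).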

How the data were processed

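Kidney poly A RNA of 24 mouse libraries was measured, 6 per group, grouped by the labels. The authors deposited a signal per gene, which the values show to be counts scaled by a single factor in each library. Per the submitters' processing notes, GRCm39 was the build, and the tools were DESeq2 1.28.1, featureCounts, Subread 2.0.6 and Trim Galore 0.6.10, with settings and order not given in the sources used here. Dividing by each library's smallest step gave whole reads (tolerance 0.05) for 100% of values. Among genes with 1 to 19 reads, 70.4 to 75.3% had an even number, so counting error is larger than the read number alone gives. No column was left unmapped.

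Symbols, exon lengths and overlaps came from GENCODE M21 (52073 of 56748 identifiers, 99.2% of the signal) and promoters from RefSeq GRCm38.p6, both of an older build than the counts, so no coordinates were transferred. Genes whose normalized counts averaged 10 or more were fitted as log2(normalized count + 1) with limma 3.58.1 in R 4.3.3 (trended robust prior, 4 group means, 20 residual degrees of freedom) and adjusted per contrast by Benjamini and Hochberg. The method was also run on simulated counts that took the library scaling as known. That run therefore cannot bear on the scale between the sexes, and its outcome is not used here. The 5 contrasts were the period in each sex, their difference, and sex in each period.

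Alternatives were pseudocounts of 0.5 and 5, no filter, TMM, upper-quartile and equal-total scaling, only the compared groups, library weights, a plain prior, count tests of the recovered reads (DESeq2 1.42.0, edgeR 4.0.16), a block for the title number, and each library left out. For each contrast up to 8 called members with the largest folds get full values. Other called members, and role partners of named ones, are given more briefly. List genes were named if called and among the 4 smallest p of their list. Values of some genes are not reported here, though counts over the members and lists include all those tested. The members, the 12 related lists, the 13 marker lists and the tests were chosen with earlier results of these data known.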

Additional observations from a re-analysis of the deposited data

Results flagged for a closer look

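Within groups of 6 libraries, 9 of 164 sets of values (41 members in 4 groups), or 5.49%, had 1 library far from the others, where about 1 in 20 would be by chance. The 9 values came from 9 different libraries. In active males Slc25a12 was at 1850 in replicate 1 (the others at 2221 to 2420) and Slc25a25 at 7955 in replicate 6 (the others at 3564 to 4586). In inactive males Slc25a14 was at 249 in replicate 4 (185 to 204), Slc25a29 at 131 in replicate 1 (69.5 to 89.7) and Slc25a36 at 6229 in replicate 6 (5287 to 5621). In active females Slc25a26 was at 328 in replicate 2 (253 to 279.8), Slc25a33 at 240 in replicate 3 (213 to 218) and Slc25a42 at 2984 in replicate 1 (2130.0 to 2435). In inactive females Slc25a40 was at 835 in replicate 6 (626 to 697).

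The period change differed between the sexes by a test of the difference for Slc25a34, by 0.69 on the log2 scale (males minus females), and for Slc25a1, by 0.39.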

How the results depend on the processing

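Each library was left out in turn and 11 or 12 other settings were tried per comparison. The number of members called stayed within 1.5 times the values reported under all of them, with 1 exception. For the difference of the period change between the sexes it was 2 to 4 when 1 library was left out, the 4 arising without active male replicate 1, where Slc25a10 and Slc25a22 passed as well. Leaving out 1 library gave 6 to 11 members for the period in males, 10 to 14 for the period in females, 28 to 31 for sex in the active and 27 to 30 for sex in the inactive period. With edgeR on the recovered reads the numbers were 9, 12, 3, 30 and 28, and with DESeq2 9, 14, 3, 31 and 28, for the period in males, the period in females, their difference, sex in the active and sex in the inactive period.

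Calls held under every setting for 6 of 9 members for the period in males, 10 of 13 for the period in females, 2 of 2 for the difference, 18 of 30 for sex in the active and 15 of 28 for sex in the inactive period. Directions turned under 1 setting alone, the scaling of all libraries to equal totals, which by its construction lowers every male value relative to the female ones. In the active period the log2 fold of males over females became -0.16 for Slc25a3, -0.084 for Slc25a5, -0.0040 for Slc25a28, -0.026 for Slc25a44 and -0.17 for Slc25a46. In the inactive period it became -0.13 for Slc25a3, -0.076 for Slc25a5, -0.10 for Slc25a16, -0.012 for Slc25a26, -0.044 for Slc25a38, -0.021 for Slc25a46 and -0.049 for Slc25a51. Among these turned folds, those of Slc25a3, Slc25a5 and Slc25a46 in the active period and of Slc25a3 in the inactive period were called lower in males. These data hold no spike-in or other outside standard that would fix the scale between the sexes.

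The titles give a number to each library, shared by 1 male and 1 female of the same period. Same-numbered libraries deviated from their group means with correlations over genes of -0.104 to 0.124. Each library was also compared with the 6 libraries of the other sex in its period. By this measure 9 of 24 libraries correlated best with their own number, which is more than 1 in 6. The labels do not state pairs and the correlations were small and of either sign, so libraries were treated as unpaired, but pairing is not excluded. With the number as a replicate block 3 members were called for the difference of the period change, Slc25a22 being the one added, 29 for sex in the active and 27 for sex in the inactive period. No paired analysis was possible for the period within a sex because active and inactive libraries share no number. Slc25a18, at 342 reads over all libraries, is the member most limited by depth.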
